A study of Homo sapiens with 6 samples.

Results

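The genes described here are 46 ribosome biogenesis factors, taken by name from a table of read counts that lists 60480 gene identifiers, and all 46 were found in it and had enough reads to be tested. They were grouped by role: 5 act in RNA polymerase I transcription, 17 in the small subunit processome, 4 in late maturation of the 40S subunit, 3 in the box C/D snoRNP, 4 in the box H/ACA snoRNP, 8 in 60S assembly, and 5 are multifunctional nucleolar proteins. The RNA came from OE-19, an established cell line from an adenocarcinoma of the esophagogastric junction (AEG), grown in RPMI1640 medium with serum. One group of 3 libraries came from cells with a control shRNA (control) and the other group of 3 libraries from cells with an shRNA against IGF2BP3 (IGF2BP3 KD). IGF2BP3 is an RNA-binding protein that reads m6A marks and stabilizes mRNAs, and the comparison asks which transcripts differ in level when it is depleted. Both groups are the same line and, as far as the labels say, differ only in the shRNA. The sources used here do not say which hairpin each IGF2BP3 KD library carries, nor whether the libraries of a group came from separate cultures, so the p-values measure only the spread between these libraries. Libraries were made from polyA RNA with a kit that marks the strand, so the counts describe the mRNAs of these factors and not ribosomal RNA.

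Ribosome biogenesis starts in the nucleolus, where RNA polymerase I transcribes a long precursor that is cut and modified into the mature ribosomal RNAs. The small subunit processome, a large particle built around the U3 snoRNP, folds and cleaves the 5′ part of this precursor, while separate sets of factors assemble the 60S subunit. Small nucleolar RNPs place the modifications: box C/D particles guide 2′-O-methylation and box H/ACA particles guide pseudouridylation. Genes of this system are commonly expressed together in growing cells, and many of them are known targets of MYC.

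*IGF2BP3* itself (ENSG00000136231) had 7416, 7363 and 6532 counts in the control libraries and 777, 792 and 794 in the IGF2BP3 KD libraries, with a log2 fold change of -3.03 (SE 0.06, edgeR adjusted p = 3.1e-10). The libraries held between 53424071 and 69989087 counts, and no member had fewer than 475 counts in any library. In CPM, which are counts scaled by TMM to a common library size, the summed epithelial markers were 18720 to 19720 in control and 20430 to 20890 in IGF2BP3 KD, where *EPCAM*, *CLDN7* and *ERBB2* were called higher and *KRT8* and *KRT18* lower among 9 tested. Most of this sum was *ERBB2*, at a mean of 13070 CPM in control and 14340 CPM in IGF2BP3 KD. The marker next in level, *KRT8*, had means of 2627 and 2524 CPM. Fibroblast markers summed to 21.2 to 24.6 CPM in control and 29.9 to 34.4 in IGF2BP3 KD, nearly all of it *COL1A1*, with *COL1A2* and *LUM* at 0 in every library, and 1 of 3 tested was called higher. Immune markers, nearly all *LYZ*, summed to 2506 to 2734 CPM in control and 2543 to 2616 in IGF2BP3 KD, with *CD68* called higher among 3 tested and *CD3E* at 0. Endothelial markers stayed at or under 0.563 CPM. The part of these marker differences in the results was not tested. In bulk RNA, fewer cells that express a gene and less RNA per cell cannot be told apart.

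More ribosome biogenesis factors fell than rose in IGF2BP3 KD cells, among members chosen with earlier results of these data known. At an adjusted p under 0.05, 16 of 46 members fell (34.8%), against 10.6% of all 19778 genes tested, and 1 of 46 rose (2.17%), against 9.87% of all genes. Members are well expressed, and among the 9690 genes whose mean reached 10.8 CPM, the level of the lowest member, 19.5% were called lower and 16.6% higher. The median log2 fold change of the members was -0.10, with a range from -1.02 to 0.32, and 35 of 46 were below 0, while the median over all genes was 0.01. Groups did not overlap in 27 of 46 members (58.7%), against 35.8% of all genes and 52.9% of genes at members' levels, a share near that of the members. With the lower values in IGF2BP3 KD there were 24 of 46 members (52.2%), against 17.8% of all genes and 28.1% of genes at members' levels. Summed over the 46 members, the level was 4605 ± 91.4 CPM in control and 4117 ± 26.6 CPM in IGF2BP3 KD (SD, n = 3 each), or 10.6% lower. The lowest control library had 4524 CPM and the highest IGF2BP3 KD library 4143 CPM.

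**Figure D1:**
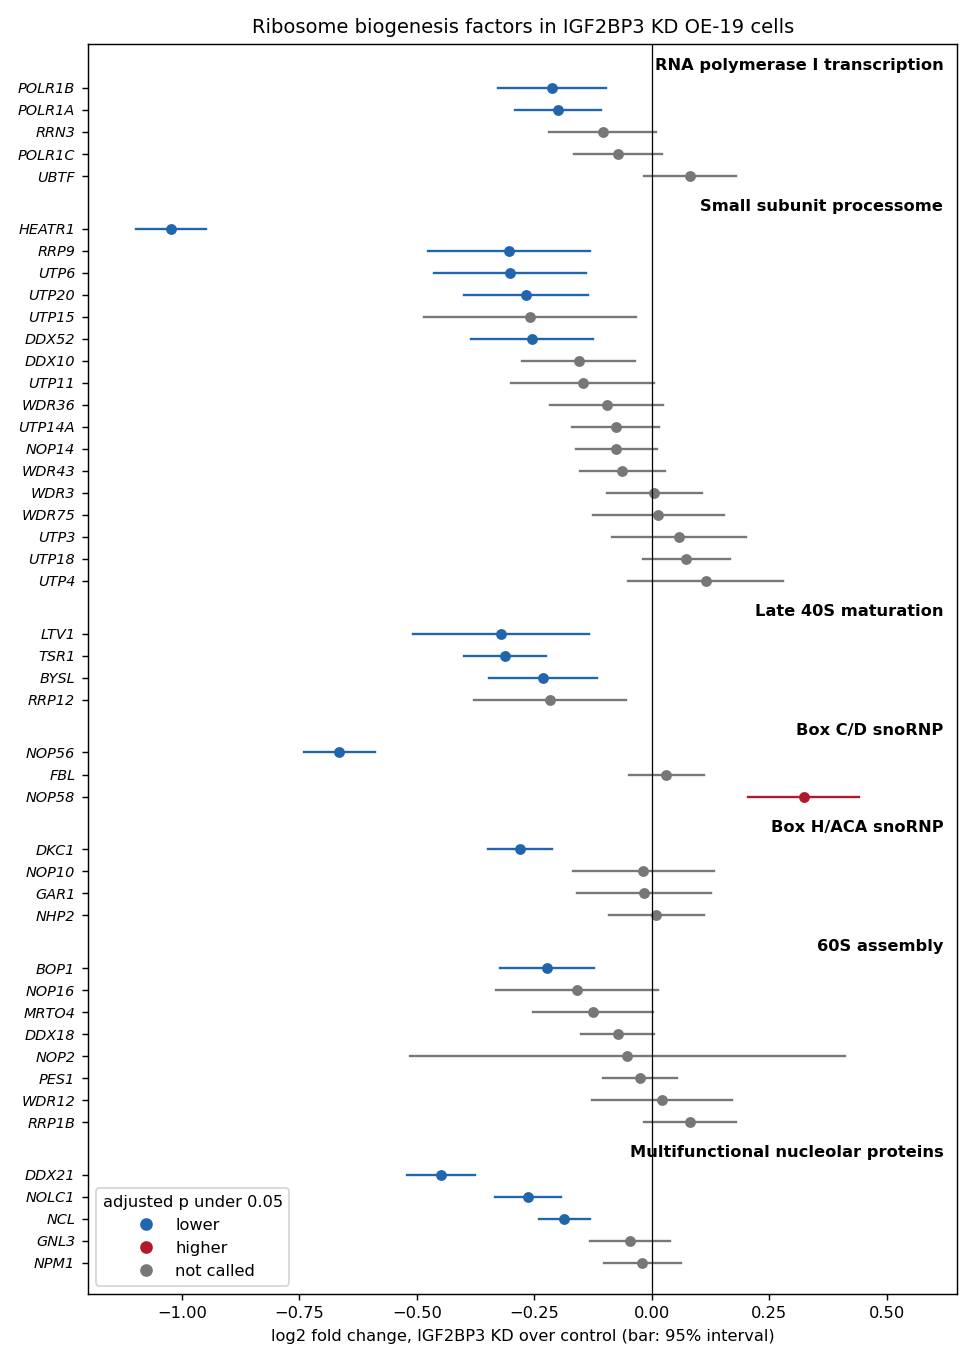
Log2 fold change of each of the 46 members, IGF2BP3 KD over control, by role, with bars for the 95% interval from edgeR. Blue points are called lower and the red point is called higher at an adjusted p under 0.05, and grey points are not called. *HEATR1* at -1.02 and *NOP56* at -0.67 lie farthest to the left, and *NOP58* at 0.32 is the only red point.

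By role, late 40S factors had a median log2 fold change of -0.27 with 3 of 4 called lower, and their summed level was 17.3% lower. Multifunctional nucleolar proteins had a median of -0.19 with 3 of 5 called lower. Medians in the other classes were -0.11 for RNA polymerase I transcription (2 of 5 lower), -0.10 for the small subunit processome (5 of 17 lower), -0.06 for 60S assembly (1 of 8 lower), -0.02 for the box H/ACA snoRNP (1 of 4 lower) and 0.03 for the box C/D snoRNP (1 of 3 lower and 1 higher). Over all genes tested 10.6% were called lower, and over genes at members' levels 19.5%. The shares of 12.5% in 60S assembly and 25% in the box H/ACA snoRNP, each from 1 called member, lie near these. The differences between these classes were not tested. Per kilobase of annotated exon, control levels ran from 1.86 CPM for *UTP15* to 75.7 CPM for *NCL*, and *FBL* (66.6) and *NPM1* (64.0) were next below *NCL*.

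**Figure D2:**
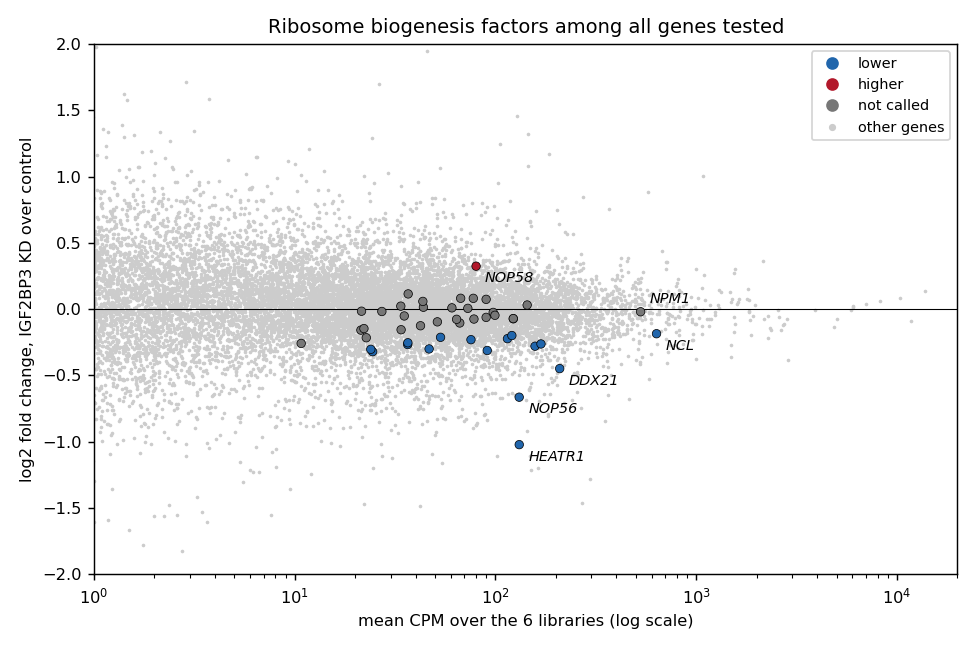
Log2 fold change of every tested gene against its mean CPM over the 6 libraries (log scale). Light grey points are other genes, and the larger points are the 46 members, in blue when called lower, red when called higher and grey when not called. Genes under 1 CPM or beyond a log2 fold change of 2 in either direction are outside the axes. All members lie between 10 and 1000 CPM, and 35 of 46 lie below the line at 0.

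RNA polymerase I transcribes the ribosomal RNA precursor, and both of its large catalytic subunits fell. *POLR1B* (ENSG00000125630), which encodes the second-largest subunit, was at 56.6, 55.9 and 59.1 CPM in control and 49.0, 47.2 and 51.8 CPM in IGF2BP3 KD. All 3 IGF2BP3 KD libraries were below all 3 control libraries, with a log2 fold change of -0.21 (SE 0.05, edgeR adjusted p = 0.014). Leaving out control replicate 3, IGF2BP3 KD replicate 1 or IGF2BP3 KD replicate 2 ended this call, with log2 fold changes between -0.25 and -0.18 over all 6 omissions. *POLR1A*, the largest subunit, fell from 129 ± 5.74 to 112.3 ± 3.29 CPM (SD, n = 3), a log2 fold change of -0.20 (edgeR adjusted p = 0.0054). The other 3 members of the class were not called. *POLR1C*, a subunit shared with RNA polymerase III, had a log2 fold change of -0.07 with a 95% interval from -0.17 to 0.02. *RRN3*, which brings the polymerase to the promoter, had -0.11 (-0.22 to 0.01), and *UBTF*, which binds the promoter and the gene body of ribosomal DNA, had 0.08 (-0.02 to 0.18).

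*HEATR1* (ENSG00000119285, hg38 chr1:236549005-236604516, minus strand) had the largest fall of all members. It encodes the human counterpart of yeast Utp10, a subunit of the UTP-A complex that binds the nascent precursor first and is also needed for its transcription. *HEATR1* was at 180, 174 and 174 CPM in control and 84.9, 88.2 and 86.7 CPM in IGF2BP3 KD, from 10163 to 12330 counts against 4581 to 5478. Each group was tight and the groups were far apart. The log2 fold change was -1.02 (SE 0.03, edgeR adjusted p = 1.1e-08), a fall of 50.8%. Its exons share 2095 bases with *LGALS8* on the opposite strand, and the strand setting of the counting is not given in the sources used here. *LGALS8* was at 9.90 ± 1.10 CPM in control and 10.99 ± 1.63 CPM in IGF2BP3 KD (SD, n = 3) and was not called (log2 fold change 0.15, edgeR adjusted p = 0.49).

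The other 4 UTP-A members were not called. *UTP4* had a log2 fold change of 0.11 (95% interval -0.05 to 0.28), *WDR43* -0.06 (-0.15 to 0.03), *WDR75* 0.01 (-0.13 to 0.15) and *UTP15* -0.26 (-0.49 to -0.03, edgeR adjusted p = 0.11). The ratio of *HEATR1* counts to *WDR43* counts was 2, 1.83 and 1.92 in control and 0.944, 1.03 and 0.986 in IGF2BP3 KD, and the ratio to *WDR75* went from a mean of 4.04 to 1.98. Ratios to *UTP4* and *UTP15* were 54.7% and 41.0% lower in IGF2BP3 KD, and no ratio overlapped between groups. These pairs were chosen after the values were seen, and a count ratio also carries the lengths of both genes, so only its change between groups can be read.

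Smaller falls were called in 4 further members of the processome. *UTP20* (ENSG00000120800), a very large scaffold protein of the particle, was at 41.2, 37.7 and 40.9 CPM in control and 34.4, 31.7 and 33.4 CPM in IGF2BP3 KD, with a log2 fold change of -0.27 (SE 0.06, edgeR adjusted p = 0.0082). *DDX52*, an RNA helicase, was at 41.6, 39.5 and 38.3 CPM and then at 34.7, 31.8 and 33.6 CPM, a log2 fold change of -0.25 (SE 0.06, edgeR adjusted p = 0.01). Both kept their call whichever library was left out, and their groups did not overlap.

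*RRP9*, a protein of the U3 snoRNP, was at 25.1, 29.1 and 25.1 CPM in control and 22.3, 20.0 and 21.9 CPM in IGF2BP3 KD (log2 fold change -0.30, SE 0.08, edgeR adjusted p = 0.017). *UTP6*, a subunit of the UTP-B complex, was at 53.6, 53.5 and 47.5 CPM in control and 42.9, 37.7 and 44.9 CPM in IGF2BP3 KD (log2 fold change -0.30, SE 0.07, edgeR adjusted p = 0.013). Values within each group were wider here, though the groups still did not overlap. Leaving out replicate 2 of either group ended the call of *RRP9*, whose log2 fold change ran from -0.34 to -0.23 over all omissions. Leaving out control replicate 2 ended that of *UTP6*, which ran from -0.36 to -0.23.

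The other 12 members of the processome, *UTP4*, *WDR43*, *WDR75* and *UTP15* included, were not called. In the UTP-B complex, *WDR36* had a log2 fold change of -0.10 (95% interval -0.22 to 0.02), *WDR3* 0.01 (-0.10 to 0.11) and *UTP18* 0.07 (-0.02 to 0.17). The helicase *DDX10* had -0.16 (-0.28 to -0.04, edgeR adjusted p = 0.07), with 34.7 to 36.6 CPM in control and 31.4 to 33.0 CPM in IGF2BP3 KD. *UTP11*, *UTP14A*, *NOP14* and *UTP3*, all proteins of the same particle, had log2 fold changes of -0.15, -0.08, -0.08 and 0.06.

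Pre-40S particles leave the nucleolus with a set of late factors. All 4 late factors among the members were lower in each IGF2BP3 KD library than in any control library. The same held for 17.8% of all genes and for 28.1% of genes at members' levels. It did not hold for the 7 late 40S factors of the wider list described further on. There, *RIOK3* and *TSR3* had their higher values in IGF2BP3 KD. *TSR1* (ENSG00000167721), a GTPase-like protein that blocks early binding of translation factors, was at 98.4, 99.4 and 104 CPM in control and 80.1, 82.0 and 81.2 CPM in IGF2BP3 KD. Its log2 fold change was -0.31 (SE 0.04, edgeR adjusted p = 2e-04), and the call held whichever library was left out. The exons of *TSR1* share 1292 bases with genes on the opposite strand, *SRR* among them, which was at 4.31 ± 0.54 CPM in control and 4.16 ± 0.72 CPM in IGF2BP3 KD (SD, n = 3). *BYSL*, a late processing factor, fell from 81.5 ± 1.92 to 69.5 ± 4.59 CPM (SD, n = 3), a log2 fold change of -0.23 (edgeR adjusted p = 0.0086).

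*LTV1*, an adaptor on the pre-40S particle, was at 27.4, 27.0 and 27.0 CPM in control and 24.9, 20.5 and 19.8 CPM in IGF2BP3 KD. The first IGF2BP3 KD library lay nearer to control than the other two did. The log2 fold change was -0.32 (SE 0.09, edgeR adjusted p = 0.02), and it kept its call only without IGF2BP3 KD replicate 1, while leaving out any of the other 5 libraries ended it (log2 fold changes -0.44 to -0.26). *RRP12*, an export factor of both subunits, was at 25.4, 25 and 22.8 CPM in control and 21.5, 22.1 and 19.5 CPM in IGF2BP3 KD. It was not called (log2 fold change -0.22, 95% interval -0.38 to -0.05, edgeR adjusted p = 0.061), but 5 of the 7 other fits on all 6 libraries called it lower.

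The box C/D snoRNP had both the second-largest fall and the only rise among the members. This particle holds the methyltransferase fibrillarin (*FBL*) and a pair of related scaffold proteins, NOP56 and NOP58, which bind each other. *NOP56* (ENSG00000101361, hg38 chr20:2652593-2658393, plus strand) was at 165, 157 and 161 CPM in control and 103, 101 and 100 CPM in IGF2BP3 KD. It fell by 36.9% with a log2 fold change of -0.67 (SE 0.03, edgeR adjusted p = 4.1e-07). *NOP58* (ENSG00000055044, hg38 chr2:202265736-202303661, plus strand) was at 75.4, 67.3 and 70.6 CPM in control and 90.1, 84.1 and 92.8 CPM in IGF2BP3 KD. It rose by 25.1% with a log2 fold change of 0.32 (SE 0.05, edgeR adjusted p = 0.0013). *FBL* was at 138, 144 and 145 CPM in control and 141, 150 and 145 CPM in IGF2BP3 KD, and was not called (log2 fold change 0.03, 95% interval -0.05 to 0.11).

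The proportions among these partners differed between the groups. The ratio of *NOP56* to *NOP58* counts was 2.19, 2.33 and 2.27 in control and 1.15, 1.21 and 1.08 in IGF2BP3 KD, 49.3% lower on average. Relative to *FBL*, *NOP56* went from 1.13 ± 0.06 to 0.699 ± 0.029 and *NOP58* from 0.5 ± 0.042 to 0.613 ± 0.045 (SD, n = 3). None of these 3 ratios overlapped between groups. As with *HEATR1*, these pairs were chosen after the values were seen, and no test was run on them.

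*NOP56* is also a host gene of small nucleolar RNAs, and one of them, *SNORD86*, is known as a switch in the splicing of its own host. Reads at *SNORD86* in polyA libraries can come from host transcripts that keep this region, and cannot be told apart from them here. *SNORD86* had 284, 260 and 212 counts in control and 94, 113 and 132 counts in IGF2BP3 KD, with a log2 fold change of -1.02 (SE 0.18, edgeR adjusted p = 0.0018). The other snoRNA genes that share exonic bases with *NOP56* had at most 33 counts in any library. snoRNA genes lie inside 8 members, *WDR43*, *TSR1*, *NOP56*, *NOP58*, *DKC1*, *NCL*, *GNL3* and *POLR1C*, of which 4 fell and 1 rose (median log2 fold change -0.13), and of the other 38 members 12 fell (median -0.10).

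**Figure D3:**
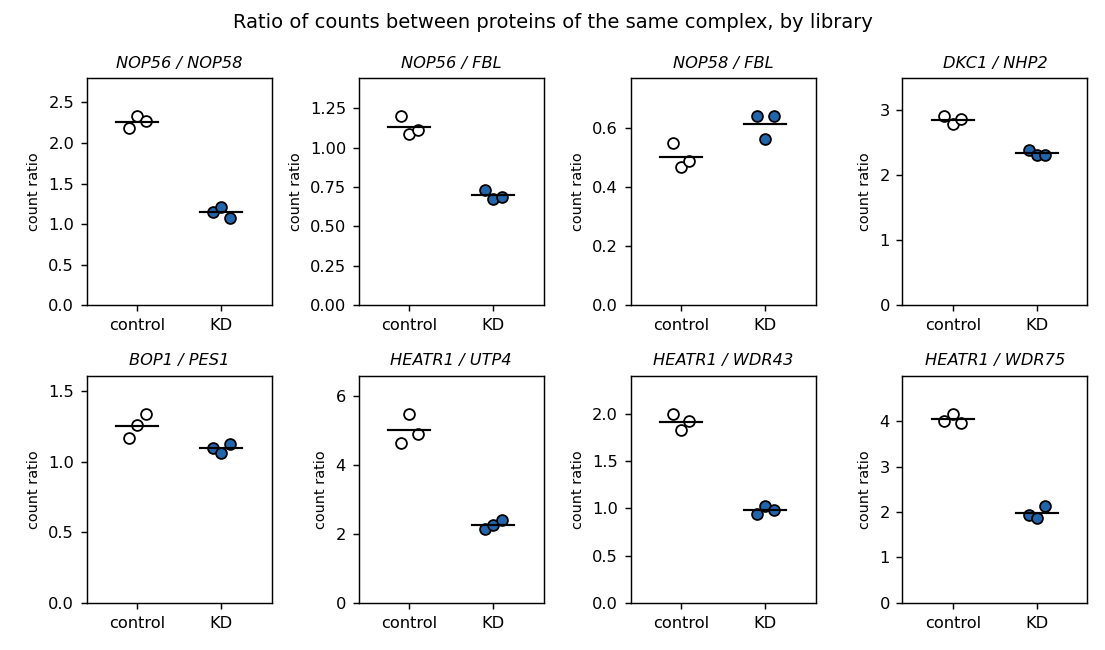
Ratio of read counts between genes whose proteins work in the same complex, for each of 3 control libraries (open circles) and 3 IGF2BP3 KD libraries (filled circles), with a line at the mean. Each vertical axis starts at 0. The *NOP56* to *NOP58* ratio falls from 2.26 to 1.15 on average, and the *NOP58* to *FBL* ratio is the only one that is higher in IGF2BP3 KD.

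In the box H/ACA snoRNP, the catalytic subunit fell and its 3 partners were not called. *DKC1* (ENSG00000130826), which encodes the pseudouridine synthase dyskerin, was at 174, 170 and 174 CPM in control and 139, 144 and 143 CPM in IGF2BP3 KD, with a log2 fold change of -0.28 (SE 0.03, edgeR adjusted p = 8.1e-05). The core proteins *NHP2* (log2 fold change 0.01, 95% interval -0.09 to 0.11), *GAR1* (-0.02, -0.16 to 0.13) and *NOP10* (-0.02, -0.17 to 0.13) had intervals across 0. The ratio of *DKC1* to *NHP2* counts was 2.86 ± 0.06 in control and 2.34 ± 0.04 in IGF2BP3 KD (SD, n = 3), 18.1% lower. This ratio restates the fall of *DKC1* beside an uncalled partner. The pair was chosen after the values were seen, and ratios to *GAR1* and *NOP10* were not computed.

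Among the 8 factors of 60S assembly, 1 fell. *BOP1* (ENSG00000261236), which with PES1 and WDR12 forms the PeBoW complex of the early 60S particle, was at 116, 124 and 130 CPM in control and 106, 103 and 109 CPM in IGF2BP3 KD (log2 fold change -0.22, SE 0.05, edgeR adjusted p = 0.0048). Its partners were not called: *PES1* had a log2 fold change of -0.03 (95% interval -0.10 to 0.05) and *WDR12* 0.02 (-0.13 to 0.17). The ratio of *BOP1* to *PES1* counts was 1.26 ± 0.085 in control and 1.10 ± 0.035 in IGF2BP3 KD (SD, n = 3). This pair too was chosen after the values were seen, and a ratio to *WDR12* was not computed. *NOP16* and *MRTO4*, both 60S assembly proteins, had -0.16 and -0.13, the helicase *DDX18* had -0.07 and *RRP1B* had 0.08.

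*NOP2*, a cytosine methyltransferase of the large subunit RNA, had the widest interval of all members. It had 2769, 1523 and 2637 counts in control and 2194, 1876 and 2054 in IGF2BP3 KD, with a log2 fold change of -0.05 and a 95% interval from -0.52 to 0.41. It shares 2550 exonic bases with ENSG00000285238 on the same strand, which had 4384, 10207 and 3135 counts in control and 1722, 4797 and 4737 in IGF2BP3 KD. The control library with the fewest *NOP2* counts had the most counts for this partner. The sum of both genes was 104, 168 and 98.5 CPM in control and 72.6, 107 and 108 CPM in IGF2BP3 KD, and the groups overlapped in the sum as well. These counts are given because *NOP2* stood apart once its values were seen.

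Of the multifunctional nucleolar proteins, 3 of 5 fell. *DDX21* (ENSG00000165732), an RNA helicase that links RNA polymerase I and II transcription with rRNA processing, was at 251, 236 and 236 CPM in control and 176, 176 and 178 CPM in IGF2BP3 KD. This was the third-largest fall, with a log2 fold change of -0.45 (SE 0.03, edgeR adjusted p = 4.3e-06). *NOLC1*, a chaperone of snoRNPs, was at 186, 185 and 180 CPM and then at 156, 149 and 154 CPM (log2 fold change -0.26, SE 0.03, edgeR adjusted p = 0.00016). *NCL*, nucleolin, fell from 674.8 ± 15.5 to 593.2 ± 4.55 CPM (SD, n = 3; log2 fold change -0.19, edgeR adjusted p = 0.00026). *NPM1*, nucleophosmin, had 507 to 567 CPM in control and 520 to 532 CPM in IGF2BP3 KD, and its interval of -0.10 to 0.06 holds 0 but not the change of *NCL*. *GNL3*, nucleostemin, had a log2 fold change of -0.05 (95% interval -0.13 to 0.04).

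**Figure D4:**
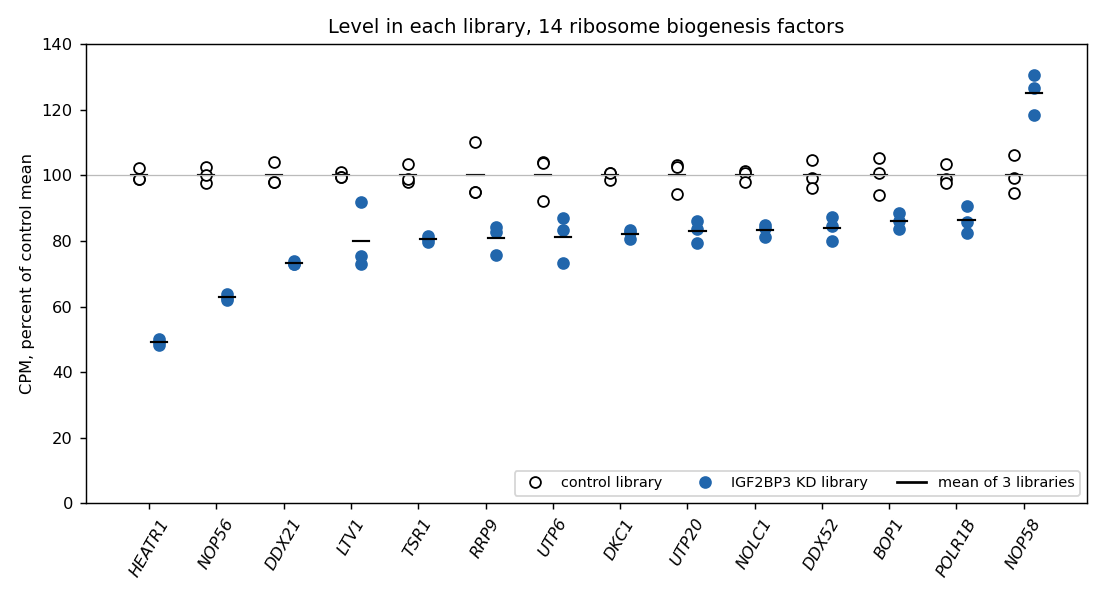
CPM in each library as a percent of the control mean of the same gene, for the 12 called members with the largest changes and for *BOP1* and *POLR1B*, the members with the largest called change in their roles. Open circles are control libraries, filled circles IGF2BP3 KD libraries, and lines the mean of 3 libraries. *HEATR1* lies near 50% in all 3 IGF2BP3 KD libraries, *NOP58* above 100% in all 3, and one *LTV1* library lies nearer to control than the other two.

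Overlap with other genes bears on these counts, since the strand setting and the annotation release of the counting are not given in the sources used here. In GENCODE v44, 24 members share exonic bases with another gene, of which 10 fell and 1 rose (median log2 fold change -0.17), and 22 share none, of which 6 fell (median -0.08). The 6 called without any shared base were *POLR1A*, *UTP20*, *RRP9*, *BYSL*, *NOLC1* and *DDX21*.

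Promoter sequences from RefSeq (GRCh38.p14, from 250 bases before to 50 bases after the start of the gene) were matched for 39 of 46 members. The E-box CACGTG, which reads the same on both strands and is bound by MYC with MAX and by other factors of their class, was found in 14 of 39 (35.9%). Of all 35116 promoters of the same length, 7.26% hold it, and of the 11029 tested coding genes with a promoter 9.98%. Shown here are 3 members that hold the word close to the start, *UTP20* and *RRP9*, which fell, and *NOP10*, which holds it at 2 positions and was not called. Capitals mark CACGTG, which begins at -10 in *UTP20* and at -5 in *RRP9*, counted from the start of the gene. Not shown are *WDR43*, *UTP18* and *FBL*, which also hold it close to the start, at 4, 5 and 7, and were not called.
UTP20 promoter, chr12:101279855-101280154, plus strand: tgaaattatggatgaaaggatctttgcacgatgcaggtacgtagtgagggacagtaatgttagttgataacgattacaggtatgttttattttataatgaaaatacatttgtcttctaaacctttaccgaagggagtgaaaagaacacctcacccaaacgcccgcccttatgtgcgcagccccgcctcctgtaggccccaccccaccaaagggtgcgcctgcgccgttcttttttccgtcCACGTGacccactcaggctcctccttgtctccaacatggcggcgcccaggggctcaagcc
RRP9 promoter, chr3:51941855-51942154, minus strand: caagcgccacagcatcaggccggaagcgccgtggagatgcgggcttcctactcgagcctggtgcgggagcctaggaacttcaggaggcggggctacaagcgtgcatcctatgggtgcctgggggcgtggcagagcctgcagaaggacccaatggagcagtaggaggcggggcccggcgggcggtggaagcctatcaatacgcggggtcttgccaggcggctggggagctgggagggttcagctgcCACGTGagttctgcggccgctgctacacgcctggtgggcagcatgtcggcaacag
NOP10 promoter, chr15:34343087-34343386, minus strand: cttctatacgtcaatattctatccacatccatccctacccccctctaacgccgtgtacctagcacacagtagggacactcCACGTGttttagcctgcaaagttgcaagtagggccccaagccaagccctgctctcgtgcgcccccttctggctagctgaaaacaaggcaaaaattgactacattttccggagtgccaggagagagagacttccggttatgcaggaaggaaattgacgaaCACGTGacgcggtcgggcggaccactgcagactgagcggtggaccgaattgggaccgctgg
Of the 14 members with the word 4 fell (median log2 fold change -0.07), namely *UTP20*, *RRP9*, *BYSL* and *LTV1*, and of the 25 without it 9 fell (median -0.15). Among tested coding genes, 17.0% of those with the word and 14.5% of those without it were called lower. A match of these letters is a description of the sequence and no binding was measured.

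Words of 7 bases in the 3′ UTR had been seen to go with the direction of change in earlier analysis of these same data, and their matches in the members are given as a description. Both words were searched on the transcript strand of the canonical transcript. Of the 1072 tested coding genes with GATTACT, 35.1% were called lower and 6.72% higher. Of the 1328 with ACACATC, 10.7% were called lower and 28.1% higher, and of the 11740 with neither word, 13.0% and 11.9%. Among the members, GATTACT was found in *HEATR1* alone, and ACACATC in *UBTF*, *WDR3*, *NOP58* and *WDR12*, of which *NOP58* rose and the others were not called. The sites in the members with the largest fall and the only rise are shown with 11 bases on each side and the word in capitals. They were picked by the change of their genes, and the sites of *UBTF*, *WDR3* and *WDR12* are not shown. A link between word and change was not tested in the members.
HEATR1 3′ UTR in exon 45, hg38 chr1:236550774-236550802, minus strand: acacctacttgGATTACTtacaaatgttt
NOP58 3′ UTR in exon 15, hg38 chr2:202303457-202303485, plus strand: atcacccggacACACATCatgcttaagat
The other 41 members hold neither word, and 15 of them fell, *NOP56* and *DDX21* included (median log2 fold change -0.13).

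A list of 117 further factors of the same pathway, not among the 46, was also counted, and all 117 were tested. Like the members, this list was chosen with earlier results of these data known. In it 31 fell (26.5%) and 4 rose (3.42%), against the same 10.6% and 9.87% of all genes and 19.5% and 16.6% of genes at members' levels. That level of 10.8 CPM was set by the 46 members. Some of the 117 lie below it, among them *NAF1*, which was called lower, and *DIMT1* and *POLR1H*, which were not called. The median log2 fold change was -0.11, and 94 of 117 were below 0. The count of rises was 2 without the low-count filter, 2 to 4 when a library was left out, and 5 or 6 with GC trends removed, without or with the replicate block.

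The 11 further factors of RNA polymerase I transcription had a median log2 fold change of -0.37, and all 11 were below 0, as were 9621 of all 19778 genes tested. Of the 11, *TAF1C* (-5e-04), *POLR1D*, *POLR1H* and *TAF1D* had 95% intervals across 0. The difference from the other classes was not tested. *TTF1*, which terminates transcription of ribosomal DNA, was at 34.1, 32.3 and 35.3 CPM in control and 19.7, 18.2 and 18.3 CPM in IGF2BP3 KD (log2 fold change -0.85, SE 0.06, edgeR adjusted p = 5.2e-06). *TAF1A*, a subunit of the promoter factor SL1, was at 16.4, 13.1 and 14 CPM and then at 8.73, 7.55 and 9.09 CPM (-0.78, SE 0.11, edgeR adjusted p = 0.00054). *POLR1E*, a subunit of the polymerase, was at 29.1, 32.4 and 28.3 CPM and then at 19.0, 16.8 and 17.1 CPM (-0.77, SE 0.08, edgeR adjusted p = 4.2e-05). In each of these genes every IGF2BP3 KD library was below every control library. *POLR1F*, *POLR1G* and *TCOF1* also fell, by 0.75, 0.46 and 0.30 on the log2 scale. They are named after their values were seen to complete the 6 of 11 called (54.5%). Of all genes tested 10.6% were called lower, and of genes at members' levels 19.5%.

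GATTACT was found in the 3′ UTR of 8 further factors, of which 4 fell, *TTF1*, *POLR1E*, *POLR1F* and *UTP25* (median of the 8, -0.34). The other 4, *EMG1*, *KRR1*, *RIOK2* and *EXOSC6*, were not called (log2 fold changes 0.06, 0.08, -0.28 and -0.11). ACACATC was found in 5 further factors, of which 1 fell and 1 rose (median -0.12), and *UTP25* and *KRR1* hold both words. Of the 106 with neither word, 27 fell and 3 rose (median -0.10). The sites of the polymerase I factors are shown with the word in capitals, beside which that of *HEATR1* above can be set. The sites of *UTP25* and of the 4 factors not called are not shown.
TTF1 3′ UTR in exon 11, hg38 chr9:132375706-132375734, minus strand: tgagagagagaGATTACTatttcttgtcc
POLR1E 3′ UTR in exon 12, hg38 chr9:37503478-37503506, plus strand: tgaggcaggacGATTACTtgagcttggga
POLR1F 3′ UTR in exon 4, hg38 chr7:19697527-19697555, minus strand: gggaaatttcaGATTACTttttaatgatt
These 4 sequences share the 7 bases that were searched for, and their alignment beyond them was not examined.

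In the other classes of the list, 4 of 28 further processome factors fell (*UTP25*, *UTP23*, *PDCD11* and *NAT10*). So did 1 of 7 late 40S factors (*PNO1*) and 1 of 7 box C/D factors (*RUVBL1*). Each of these shares was 14.3%, against 10.6% of all genes and 19.5% of genes at members' levels. Falls were also called in 1 of 2 box H/ACA factors (*NAF1*) and 13 of 47 factors of 60S assembly (27.7%). Of the exonuclease factors 5 of 15 fell (33.3%), *XRN2*, *EXOSC2*, *EXOSC3*, *EXOSC8* and *EXOSC10*. Among the late 40S factors, *RIOK3*, a kinase of the RIO family, was at 205, 204 and 205 CPM in control and 212, 222 and 212 CPM in IGF2BP3 KD, and *TSR3*, which modifies the small subunit RNA, was at 22.8, 26 and 27 CPM and then at 27.3, 27.1 and 32.1 CPM. Both were higher in every IGF2BP3 KD library than in any control library and neither was called (log2 fold changes 0.07 and 0.19, edgeR adjusted p = 0.12 and 0.15). All 4 rises were in 60S assembly, 8.51% of its 47 factors, against 9.87% of all genes and 16.6% of genes at members' levels. *NMD3*, the adaptor that exports the 60S subunit from the nucleus, was at 81.8, 76.2 and 72.2 CPM in control and 115, 116 and 118 CPM in IGF2BP3 KD, with a log2 fold change of 0.60 (SE 0.05, edgeR adjusted p = 7.5e-06), farther from 0 than that of any 60S factor that fell. *NOP53* (log2 fold change 0.18, edgeR adjusted p = 0.0049) and *SURF6* (0.14, edgeR adjusted p = 0.039), both nucleolar proteins of the large subunit pathway, rose by less, as did *RSL24D1*.

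**Figure D5:**
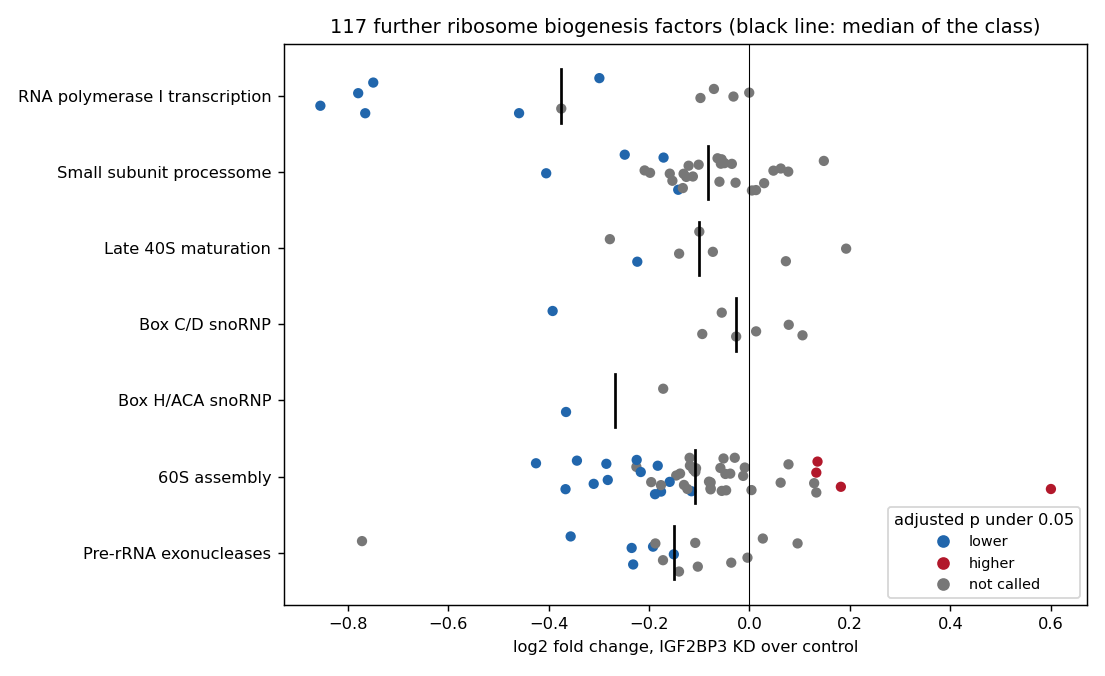
Log2 fold change, IGF2BP3 KD over control, of 117 further ribosome biogenesis factors by class, with blue points called lower, red points called higher, grey points not called, and a black line at the median of each class. Vertical scatter within a class has no meaning. The median of RNA polymerase I transcription lies at -0.37, and *NMD3* at 0.60 is the red point farthest to the right.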

How the data were processed

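Counts per gene of 3 control and 3 IGF2BP3 KD libraries of OE-19 cells were analysed. Per the study's methods and the submitters' processing notes, which also name fastp, the authors aligned paired reads to hg38 with HISAT2, counted them with featureCounts and deposited the raw counts without normalization. Versions, annotation release and strand setting are not given in the sources used here. Columns were assigned to libraries by name. Of 60480 identifiers, 44 recur in 132 extra entries (96 identical to the first entry), and only first entries were used. Totals were 53424071 to 69989087 counts per library, and TMM factors 0.992 to 1.01.

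The members and lists were chosen with earlier results of these data known. Genes were tested in R 4.3.3 with edgeR 4.0.16 (TMM scaling, filterByExpr at min.count 10 and min.total.count 15, then glmQLFit with glmQLFTest, Benjamini-Hochberg adjustment across 19778 genes, threshold 0.05), two-sided, with no block. An exact permutation test of 3 against 3 libraries cannot go below 0.1 and was not used. CPM values are scaled by TMM. Values per library are given for the 12 called members with the largest absolute log2 fold change and for the leading called member of each role. Of the further factors, 3 falls and 3 rises at a mean of at least 1 CPM are named by size. Other genes were named after their values were seen. The scripts were tested on simulated data.

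Alternatives were DESeq2 1.42.0, size factors by RLE, filters of none or of at least 10 counts in every library, a block for the replicate number, removal of GC trends per library (lowess span 0.3) with and without that block, leaving out each library, and only members that share no exonic base. The labels carry replicate numbers, but same-numbered libraries did not deviate together (correlations -0.017, -0.051 and -0.042 over 14289 genes), so they were not taken as pairs. GENCODE v44 (hg38) gave gene positions, exons and 3′ UTRs and holds 99.97% of tested genes. Chi-square per degree of freedom between libraries was 9.86 to 17.6 within groups and 46.3 to 58.2 between groups, so no library repeats another. Figures were drawn with matplotlib 3.10.9 in Python 3.11.15.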

Additional observations from a re-analysis of the deposited data

How the results depend on the processing

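In every fit on all 6 libraries the 16 members called lower were called again and *NOP58* was called higher. The count of members lower was 16 with RLE scaling or no low-count filter and 17 with DESeq2, a minimum of 10 counts in every library, the replicate block, the GC correction, or both together, where *RRP12* was the addition. Leaving out a library gave 13 to 15, with *LTV1*, *POLR1B*, *RRP9* and *UTP6* as the calls lost, and a median log2 fold change of the members between -0.1384 (without control replicate 2) and -0.0783 (without control replicate 1). Among the 22 members that share no exonic base, edgeR called 6 lower and 0 higher. Among the 24 that share bases it called 10 lower and 1 higher. Whether overlap bears on this difference was not tested. At an unadjusted p under 0.05, and by DESeq2, 1 member was higher, *NOP58*, which shares exonic bases. With the replicate block, the median of the members was -0.0998 and the counts of further factors were 30 lower and 4 higher. No library correlated best with its own number, and the block changed no other call among the members. The further factors called higher, 4 as reported, were 2 without the low-count filter, 2 to 4 when a library was left out, 5 with the GC correction and 6 with it and the replicate block. Those called lower, 31 as reported, were 25 to 41 in fits on all 6 libraries, the most with DESeq2, and 22 to 29 when a library was left out, where the median log2 fold change of the list ran from -0.1304 to -0.1080. The cause was not tested. Signs changed only for members not called and close to 0: *NHP2* was -0.0001 without the filter, -0.0200 with the GC correction and -0.0203 with the replicate block as well, and *WDR3* was -0.0018 with DESeq2 and -0.0041 without the filter. When a library was left out, the log2 fold change ran from -0.3125 to 0.1429 for *NOP2*, -0.0409 to 0.0538 for *WDR12*, -0.0841 to 0.0230 for *NOP10*, -0.0494 to 0.0119 for *GAR1*, -0.0102 to 0.0329 for *NHP2*, -0.0571 to 0.0261 for *NPM1*, -0.0263 to 0.0376 for *WDR3*, -0.0461 to 0.0638 for *WDR75* and -0.0002 to 0.1198 for *UTP3*. Members had from 475 counts in a library upward, and the parts of counting error and of the spread between libraries in these values were not separated. An uncalled member is not shown to be unchanged: the 95% intervals of *UTP15*, *RRP12* and *DDX10* lie below 0 although their adjusted p missed the threshold.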
